A study of Homo sapiens with 6 samples.

Results

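The transcripts described here belong to 41 genes of macroautophagy, chosen by a list of gene symbols that covers the route from the start of an autophagosome to its fusion with the lysosome. All 41 symbols were found among the 59609 gene names of the deposited tables. 40 of them reached at least 1 FPKM (fragments normalized to transcript length and to sequencing depth) in at least 1 library and were tested among 16598 genes, and MAP1LC3A was not. The members comprise 5 genes of the ULK1 initiation complex, 7 of the PI3-kinase complexes and their regulators, 6 of phagophore lipid supply and PI3P effectors, 6 conjugation enzymes, 4 ATG4 proteases, 5 ATG8 family genes, 5 cargo receptors and 3 genes of fusion with lysosomes.

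RNA came from 95D, an established human lung cancer cell line labelled wild type, so every group is 1 line in culture. All cells spent their first 24 hours after seeding in complete DMEM, a medium with glucose and glutamine, with 10% fetal bovine serum. Control cells were then kept in control DMEM for 48 hours, glucose-deprived cells in DMEM without glucose, and glutamine-deprived cells in DMEM without glutamine. Both deprived media held 10% dialyzed serum, which is not mentioned for control cells, so the change of serum and the deprivation cannot be told apart in the comparisons with control. The comparison between the deprivations has dialyzed serum on both sides. The labels describe 2 libraries per group. 1 of the 2 glutamine columns is headed as a glucose-deprived sample and was left out, so the groups hold 2 control, 2 glucose-deprived and 1 glutamine-deprived library. Whether replicates were separate cultures is not stated, and p-values therefore reflect the spread between these libraries alone, which may be technical. The spread of the lone glutamine-deprived library was taken from the other groups.

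Macroautophagy encloses cytoplasm in a double membrane and delivers it to the lysosome, where it is broken down and its building blocks are reused. The kinase ULK1 starts the process when the nutrient sensor mTORC1 no longer inhibits it or when AMPK, the sensor of low energy, activates it. A class III PI3-kinase complex then marks the growing membrane with PI3P, lipid is supplied by ATG2 and ATG9A, and 2 ubiquitin-like conjugation systems attach ATG8 proteins such as LC3B to the membrane. Cargo receptors bind ATG8 proteins and ubiquitin or other labels, and STX17 and EPG5 act when the closed autophagosome fuses with the lysosome. Much of this control is exerted on proteins, which were not measured here.

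Depth, inferred from the steps in which low values of single-exon genes fall and with values taken as FPKM, was between 34600000 and 48950000 reads per library. Members' replicate values differed by a median of 3.32% between the controls and 5.15% between the glucose-deprived libraries, with largest differences of 13.7% and 19.6%. KRT8, KRT18, VIM, CDH2 and the lung factor gene NKX2-1 were at 0.709 FPKM or more in all 5 libraries. KRT19, SFTPB and CD3E were listed at 0 in all 5, and the highest values of the epithelial markers EPCAM and CDH1 were 0.139 and 0.249 FPKM, so that several markers of epithelium and of surfactant-producing lung cells were at or near 0 in this line labelled as lung cancer. These are bulk libraries scaled to each other, in which fewer cells and less RNA per cell cannot be told apart.

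Sequence before the transcription start was taken from RefSeq (GRCh38.p14), in which 35 of the 41 members had windows of 250 bases before to 50 bases after a start, 44 windows in all. The window before ULK1 is shown because ULK1 moved furthest upward. That before ATG14 is shown because ATG14 was called in opposite directions in the 2 deprivations. Its glutamine call was lost when any 1 of the other libraries was left out. The 30-base stretches are shown because they hold a searched motif in a member described below. Capitals mark the motif; ULK1 holds none. The ULK1 window lies at chr12:131894372-131894621 on the plus strand, directly before the RefSeq start and before the annotated gene at chr12:131894651-131923167. The ATG14 stretch lies at chr14:55411859-55412080 on the minus strand and stops 28 bases short of the RefSeq start, where annotated exon sequence begins. The 30-base stretches lie at chr3:112561963-112561992 (ATG3, minus strand), chr14:55411834-55411863 (ATG14, minus strand), chr12:52069847-52069876 (ATG101, plus strand) and chr16:87392279-87392308 (MAP1LC3B, plus strand). They precede the RefSeq start, but the annotated genes reach further upstream. The ATG3, ATG101 and MAP1LC3B stretches thus lie inside the annotated gene, and the ATG14 stretch in part.
ULK1: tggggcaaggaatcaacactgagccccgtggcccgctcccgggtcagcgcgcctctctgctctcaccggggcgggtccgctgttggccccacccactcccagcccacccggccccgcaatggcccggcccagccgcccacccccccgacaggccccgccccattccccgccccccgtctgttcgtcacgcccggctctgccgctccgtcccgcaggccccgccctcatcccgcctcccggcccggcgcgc
ATG14, upstream: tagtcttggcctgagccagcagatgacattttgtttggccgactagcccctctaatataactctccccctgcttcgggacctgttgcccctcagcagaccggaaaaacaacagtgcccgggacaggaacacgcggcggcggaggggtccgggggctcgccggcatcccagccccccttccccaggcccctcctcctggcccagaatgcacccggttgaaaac
ATG14, E-box: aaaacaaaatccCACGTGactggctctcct
ATG3, E-box: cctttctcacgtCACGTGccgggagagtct
ATG101, antioxidant response core: gtgtgcttctgTGACTACGCggatgttgtg
MAP1LC3B, antioxidant response core: cgcgagtcaccTGACCAGGCtgcgggctga

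Both strands of the 44 member windows were searched for 4 motifs. The C/EBP-ATF response element bound by ATF4 (TGATGNAA) was in 0 of 44 member windows and in 3.62% of all 35116 windows of the same length. The E-box CACGTG was in 2 of 44, those of ATG3 and ATG14, against 7.26% of all windows. The longer core bound by TFEB (TCACGTGA, which contains the E-box) was in 1 of 44, after the start of ATG3, against 0.980% of all windows. The antioxidant response core (TGACNNNGC) was in 4 of 44, those of ATG101, CALCOCO2, MAP1LC3B and TECPR1, against 13.3%. Median GC content of the 250 bases before the start was 62.6% in the member windows and 58.0% in all windows. A match is a description of letters in the window, and the expression values do not tell which start the cells used.

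**Figure D1:**
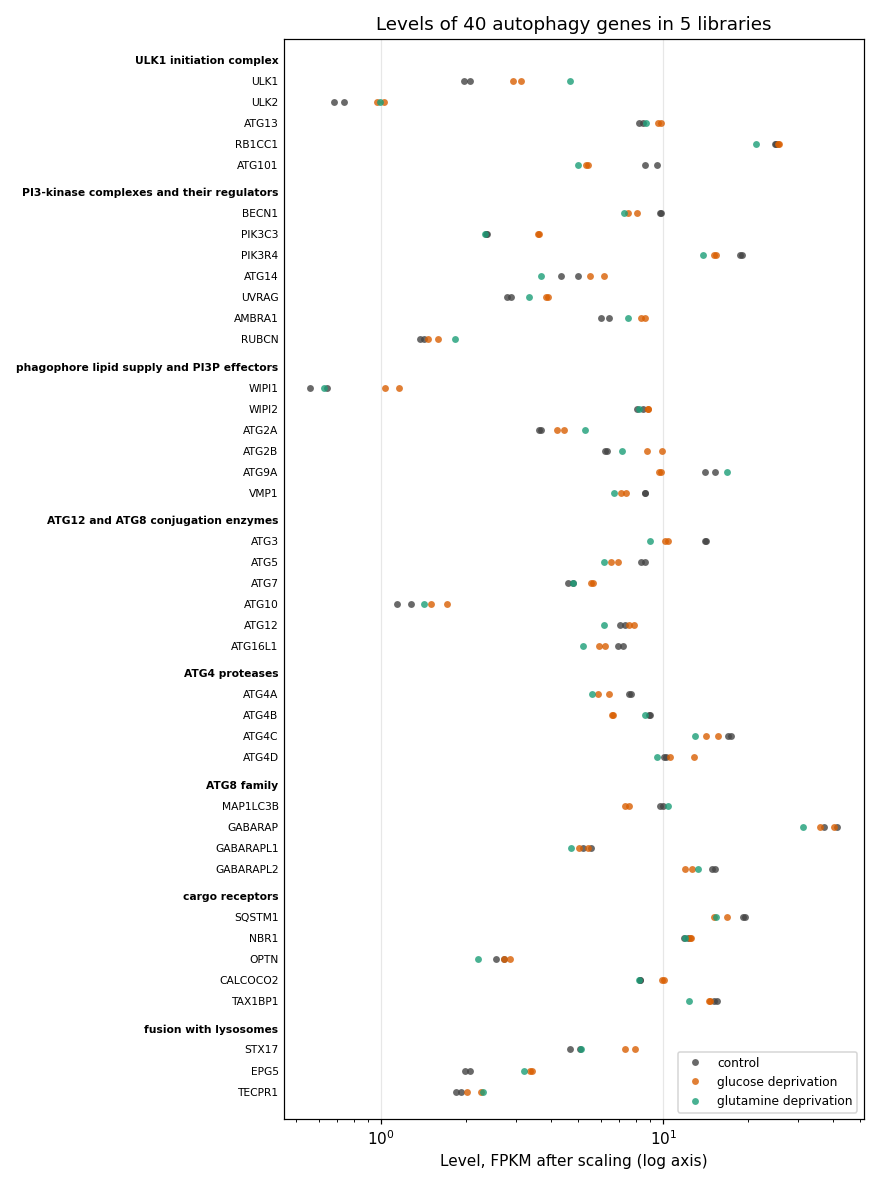
Level of each of the 40 tested autophagy genes (rows, grouped by role) in FPKM after scaling on a log axis, with 1 point per library for the 2 control, 2 glucose-deprived and 1 glutamine-deprived libraries. GABARAP and RB1CC1 lie at the high end, ULK2 and WIPI1 at the low end, and for ULK1, ATG101, PIK3C3, ATG9A, STX17 and EPG5 the control points stand clear of the glucose-deprived points.

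Autophagy transcripts shifted in both directions under each deprivation rather than as a block. In glucose deprivation ULK1, the catalytic subunit PIK3C3, the lipid transfer gene ATG2B and the fusion genes STX17 and EPG5 rose, while ATG101, the scramblase gene ATG9A, the conjugating enzyme gene ATG3 and MAP1LC3B, which encodes LC3B, fell. In glutamine deprivation ULK1 rose further, EPG5 rose, and ATG101 and ATG3 fell again, but PIK3C3 was 2.35 and 2.37 FPKM in the controls and 2.33 FPKM after glutamine withdrawal, and STX17 was 4.68 and 5.05 against 5.10 FPKM. Of the 40 tested members, 29 passed an adjusted p of 0.05 in glucose deprivation against control (limma, Benjamini-Hochberg over all genes tested), against a background of 54.7% of all genes tested. 15 of them were higher, where 26.5% of all genes were, and 14 lower, where 28.2% were. In glutamine deprivation 22 of 40 passed, against 51.0% of all genes, with 6 higher (24.7% of all genes) and 16 lower (26.4%).

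With a minimum change of 1.3-fold on the log2(FPKM + 1) scale added, which is stricter for low genes than the same ratio of FPKM, 7 members were higher and 4 lower in glucose deprivation, beside 14.0% and 14.4% of all genes tested, or 28.4% in either direction. In glutamine deprivation 3 were higher and 7 lower, beside 16.8% and 15.8%, or 32.6%. On the log2 scale the members had a median change of 0.07 without glucose and -0.03 without glutamine, against 0.02 and 0.04 over all genes. The 2 control and 2 glucose-deprived libraries did not overlap for 37 of 40 members, nor for 78.2% of all genes tested. These shares show how widely the transcriptome moved: a call by itself does not set an autophagy gene apart, and the members past 1.3-fold on that scale in either direction were 11 of 40 (27.5%) in glucose and 10 of 40 (25.0%) in glutamine deprivation.

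Level and scaling moved with these counts. Members higher in glucose deprivation had control levels of 0.602 to 8.36 FPKM (median 3.67), and members lower had 7.05 to 19.3 FPKM (median 9.82). Among all genes, medians for the 4472 that averaged 10 FPKM or more were -0.165 (glucose) and -0.312 (glutamine) on the log2 scale, and those for the 10131 genes of 1 to 10 FPKM were 0.077 and 0.125. The part of level in the members' changes was not tested. Of all genes called, 48.4% were higher in glucose and 48.3% in glutamine deprivation. Scaling to the total FPKM instead gave 68.2% and 91.4%, and no scaling and upper-quartile scaling gave 67.5% and 63.2% in glutamine deprivation. Scaling to the total shifted the median of all genes to 0.111 in glucose and 0.30 in glutamine deprivation and the members' median to 0.153 and 0.212, so that the members stayed above the median of all genes in the first and below it in the second. Directions below are relative to the trimmed-mean scaling, and called members whose direction turns under another scaling are named with it. Values that did not pass can also turn and are not marked.

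**Figure D2:**
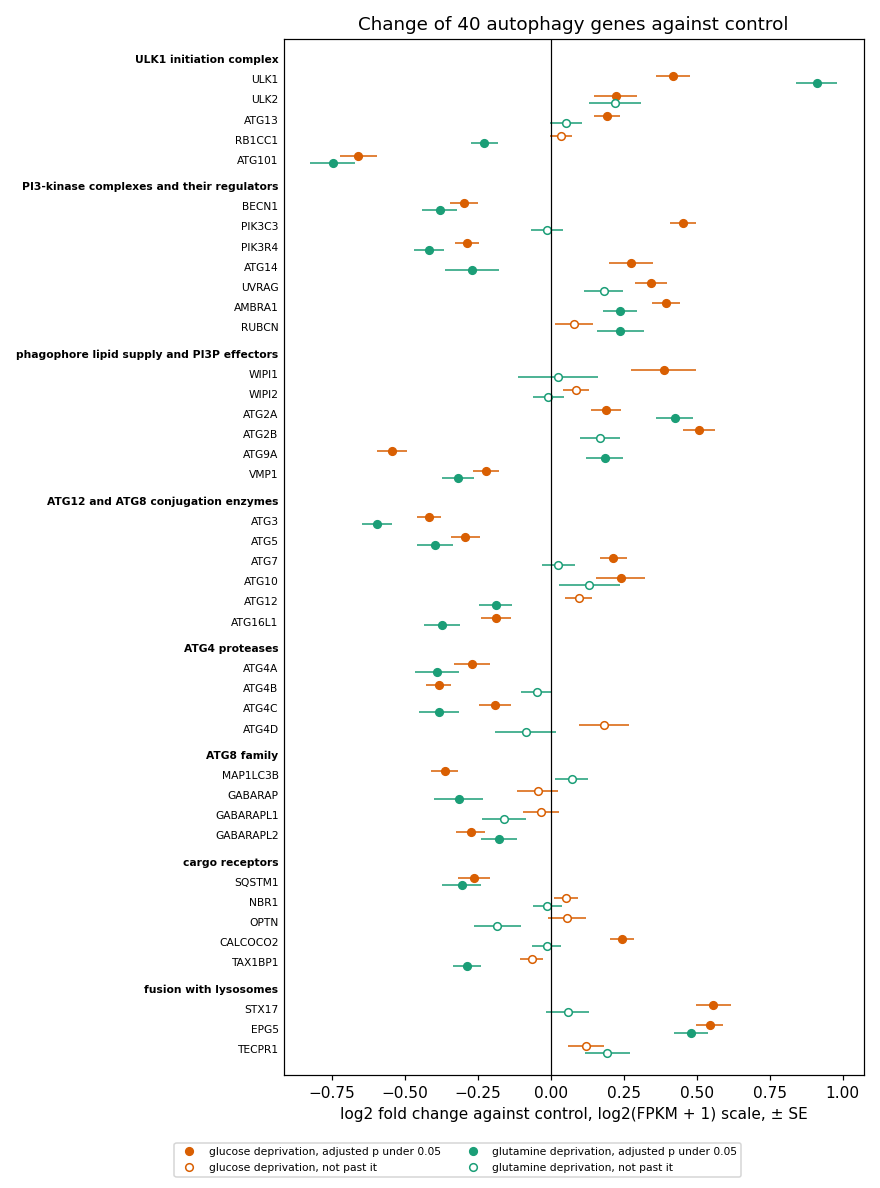
Log2 fold change of each tested autophagy gene against control on the log2(FPKM + 1) scale, with bars for the standard error, for glucose and glutamine deprivation. Filled points passed an adjusted p of 0.05: ULK1 lies at 0.42 and 0.91, ATG101 at -0.66 and -0.75, and ATG9A at -0.54 and 0.18.

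The ULK1 complex split, with its kinase higher and ATG101 lower in both deprivations. ULK1, the kinase that receives the nutrient signals, measured 1.97 and 2.06 FPKM in the controls, 2.92 and 3.14 in glucose deprivation and 4.67 in glutamine deprivation. Every deprived library lay above both controls, and the glutamine-deprived library lay highest. Glucose withdrawal gave a log2 fold change of 0.42 ± 0.06 (SE; adjusted p = 0.000624) and glutamine withdrawal one of 0.91 ± 0.07 (adjusted p = 6.57e-05), 1.5 and 2.32 times the control level. These values rest on about 511 to 1331 reads per library, and the ULK1 call held in every alternative for both deprivations. ULK1 transcripts have a GC content of 64.2%, and with a trend on GC content and length removed the glutamine change was 0.64 (adjusted p = 4.11e-05).

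ATG101, a HORMA-domain subunit that stabilises ATG13 within the complex, went the other way. It measured 9.53 and 8.64 FPKM in the controls, 5.41 and 5.35 in glucose deprivation and 5.00 in glutamine deprivation. All 3 deprived libraries lay below both controls. The log2 fold changes were -0.66 ± 0.06 (adjusted p = 0.000107) and -0.75 ± 0.08 (adjusted p = 0.00018), 0.592 and 0.550 times the control level, and both calls held in every alternative. An annotated antisense gene shares 614 exon bases with ATG101 on the other strand, and whether the counting used strand is not known here.

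The other 3 subunits moved less. ATG13, the regulatory subunit that links the kinase to its partners, was higher in glucose deprivation by a log2 fold change of 0.19 (adjusted p = 0.00739) and had 0.05 (adjusted p = 0.456) in glutamine deprivation. RB1CC1, which encodes the scaffold FIP200, had 25.0 and 25.2 FPKM in the controls, 25.8 and 25.6 in glucose deprivation and 21.3 in glutamine deprivation. RB1CC1 was lower in glutamine deprivation by -0.23 (adjusted p = 0.00496), but it had 0.08 (adjusted p = 0.767) when libraries were scaled to the total, and its adjusted p was 0.0509 without control replicate 2. ULK2, the paralogue of ULK1, had 0.22 in both deprivations, with an adjusted p of 0.0345 in glucose and 0.0761 in glutamine deprivation. ULK1 made up 72.7% and 75.3% of the summed ULK1 and ULK2 level in the controls, 74.1% and 76.4% in glucose deprivation and 82.5% in glutamine deprivation. ULK2 lost its glucose call without either control or glucose deprivation replicate 2 (adjusted p up to 0.172), and ATG13 without either control (adjusted p up to 0.0977).

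In the PI3-kinase complexes the subunits diverged. The catalytic PIK3C3 and the regulators UVRAG and AMBRA1 rose in glucose deprivation, while the core partners BECN1 and PIK3R4 fell in both deprivations. PIK3C3, also called VPS34, produces PI3P. It measured 2.35 and 2.37 FPKM in the controls, 3.61 and 3.59 in glucose deprivation and 2.33 in glutamine deprivation. The glucose-deprived libraries stood apart for PIK3C3, 1.53 times the control level, with a log2 fold change of 0.45 ± 0.05 (adjusted p = 0.000129) and a value of -0.01 ± 0.06 (adjusted p = 0.846) in glutamine deprivation.

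BECN1, which encodes the scaffold Beclin 1, had 9.79 and 9.75 FPKM in the controls, 7.48 and 8.05 in glucose deprivation and 7.27 in glutamine deprivation. PIK3R4, the gene of the pseudokinase VPS15 that holds the complex together, had 19.1 and 18.7 FPKM in the controls, 15.4 and 15.2 in glucose deprivation and 13.9 in glutamine deprivation. For both genes the 3 deprived libraries lay below both controls. BECN1 fell by 0.30 ± 0.05 (adjusted p = 0.00152) and 0.38 ± 0.06 (adjusted p = 0.00138) on the log2 scale, and PIK3R4 fell by 0.29 ± 0.04 (adjusted p = 0.000733) and 0.42 ± 0.05 (adjusted p = 0.000369). Scaling to the total ended the calls of both genes in both deprivations (adjusted p = 0.33 for BECN1 and 0.393 for PIK3R4 in glucose deprivation). BECN1 shares 795 exon bases with CNTD1 and 300 with PSME3 on the other strand.

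The subunits that direct the kinase to its place of action were higher in glucose deprivation. ATG14 targets the complex to the phagophore and had 4.36 and 4.97 FPKM in the controls, 5.51 and 6.18 in glucose deprivation and 3.69 in glutamine deprivation. It was highest in the glucose-deprived and lowest in the glutamine-deprived library, with log2 fold changes of 0.27 ± 0.07 (adjusted p = 0.0155) and -0.27 ± 0.09 (adjusted p = 0.039). The first call was lost without control replicate 1 (adjusted p = 0.171) or glucose deprivation replicate 2 (adjusted p = 0.115), and the second without any 1 of the 4 other libraries (adjusted p up to 0.193) and with the GC and length trend removed (-0.18, adjusted p = 0.106). AMBRA1, a positive regulator that binds BECN1, had 6.04 and 6.41 FPKM in the controls, 8.61 and 8.38 in glucose deprivation and 7.52 in glutamine deprivation. All deprived libraries lay above the controls, by 0.39 ± 0.05 (adjusted p = 0.000329) and 0.24 ± 0.06 (adjusted p = 0.0108) on the log2 scale, and the second call was lost without control replicate 1 (adjusted p = 0.0976) and with the GC and length trend removed (0.04, adjusted p = 0.581).

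UVRAG, the alternative partner that takes the kinase to endosomes, was higher in glucose deprivation by a log2 fold change of 0.34 (adjusted p = 0.00131) and had 0.18 (adjusted p = 0.0559) in glutamine deprivation. RUBCN, the gene of the inhibitor Rubicon, had 0.08 (adjusted p = 0.33) in glucose deprivation and was higher by 0.24 (adjusted p = 0.0384) in glutamine deprivation, a call lost without either control (adjusted p up to 0.162) and with the GC and length trend removed (0.02, adjusted p = 0.862). In all, 4 of the 7 genes of this group were higher and 2 lower in glucose deprivation (26.5% and 28.2% of all genes tested), and 2 were higher and 3 lower in glutamine deprivation (24.7% and 26.4%). The group's median change on the log2 scale was 0.27 in glucose and -0.01 in glutamine deprivation, against 0.02 and 0.04 over all genes, and the latter was 0.22 under scaling to the total, where the median of all genes was 0.30.

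Among the genes of lipid supply, the 2 ATG2 genes were higher in glucose deprivation and ATG9A lower. ATG9A encodes the multispanning lipid scramblase whose vesicles seed the phagophore. It measured 15.3 and 14.0 FPKM in the controls, 9.64 and 9.82 in glucose deprivation and 16.8 in glutamine deprivation. The glucose-deprived libraries lay well below all others, at 0.664 times the control level, and the glutamine-deprived library lay above both controls. The log2 fold changes were -0.54 ± 0.05 (adjusted p = 0.000108) and 0.18 ± 0.06 (adjusted p = 0.0419), and the second was lost without any 1 of the 4 other libraries (adjusted p up to 0.251) and with the GC and length trend removed (0.13, adjusted p = 0.0797). ATG9A shares 1833 exon bases with another coding gene annotated on the same strand, so its reads may be split between the 2 names.

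ATG2B, a lipid transfer protein gene, had 6.21 and 6.31 FPKM in the controls, 9.88 and 8.79 in glucose deprivation and 7.16 in glutamine deprivation. Its paralogue ATG2A had 3.64 and 3.70 FPKM in the controls, 4.19 and 4.46 in glucose deprivation and 5.27 in glutamine deprivation. The deprived libraries lay above both controls for each gene, but ATG2B was highest without glucose and ATG2A without glutamine. ATG2B had log2 fold changes of 0.51 ± 0.06 (adjusted p = 0.000203) and 0.17 ± 0.07 (adjusted p = 0.0715). ATG2A had 0.19 ± 0.05 (adjusted p = 0.0159) and 0.42 ± 0.06 (adjusted p = 0.00103). The glutamine change of ATG2A was 0.15 (adjusted p = 0.0638) after removal of the trend on GC content and length, and its glucose call was lost without control replicate 1 (adjusted p = 0.129), control replicate 2 (adjusted p = 0.1) or glucose deprivation replicate 2 (adjusted p = 0.0618).

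WIPI1, which binds PI3P on the phagophore, had 0.561 and 0.643 FPKM in the controls, 1.03 and 1.16 in glucose deprivation and 0.628 in glutamine deprivation. Its glucose-deprived libraries were 1.82 times the control level, with a log2 fold change of 0.39 ± 0.11 (adjusted p = 0.0198) and 0.02 ± 0.14 (adjusted p = 0.899) in glutamine deprivation. At about 65 to 135 reads per library WIPI1 was the most thinly covered tested member, and its call was lost without any 1 of the 4 control and glucose-deprived libraries (adjusted p from 0.0549 to 0.121). The second PI3P effector WIPI2, which recruits ATG16L1, passed in neither deprivation, with log2 fold changes of 0.09 and -0.01. VMP1, a scramblase gene of the endoplasmic reticulum that also hosts the microRNA gene MIR21, fell by 0.22 (adjusted p = 0.00388) and 0.32 (adjusted p = 0.00205) on the log2 scale. Both VMP1 calls were lost under scaling to the total (adjusted p = 0.573 in glucose deprivation).

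Of the 6 conjugation enzymes, 4 were lower and 0 higher in glutamine deprivation, against 26.4% and 24.7% of all genes. At an unadjusted p under 0.05 the count higher in limma was also 0. Under scaling to the total no enzyme was called in either direction there, beside 5673 of 16938 genes higher and 534 lower. In glucose deprivation 3 were lower and 2 higher, against 28.2% and 26.5% of all genes. ATG3, the E2-like enzyme that attaches ATG8 proteins to lipid, had 14.1 and 14.0 FPKM in the controls, 10.4 and 10.2 in glucose deprivation and 8.98 in glutamine deprivation. ATG5, which forms the conjugate with ATG12, had 8.32 and 8.61 FPKM in the controls, 6.93 and 6.53 in glucose deprivation and 6.18 in glutamine deprivation. Both were lowest without glutamine and had no deprived library within the control range. ATG3 fell by 0.42 ± 0.04 (adjusted p = 0.00014) and 0.60 ± 0.05 (adjusted p = 9.43e-05) on the log2 scale, and ATG5 by 0.29 ± 0.05 (adjusted p = 0.00186) and 0.40 ± 0.06 (adjusted p = 0.00128). Scaling to the total ended the calls of ATG3 and ATG5 in both deprivations (adjusted p = 0.104 and 0.33 in glucose deprivation).

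ATG16L1, which places the ATG12-ATG5 conjugate on the membrane, fell by 0.19 (adjusted p = 0.0151) in glucose and 0.37 (adjusted p = 0.00176) in glutamine deprivation on the log2 scale. The ubiquitin-like ATG12 had 0.10 (adjusted p = 0.116) in glucose deprivation and was lower by -0.19 (adjusted p = 0.0247) in glutamine deprivation, but 0.09 (adjusted p = 0.719) there under scaling to the total. ATG7, the E1-like enzyme at the head of both systems, was higher by 0.21 (adjusted p = 0.00581) in glucose deprivation and had 0.03 (adjusted p = 0.734) in glutamine deprivation, where removal of the GC and length trend gave -0.19 (adjusted p = 0.0157). ATG10, the E2-like enzyme for ATG12, was higher by 0.24 (adjusted p = 0.0433) in glucose deprivation and had 0.13 (adjusted p = 0.316) in glutamine deprivation. With 1 library left out, the glucose calls of ATG16L1, ATG10 and ATG7 reached adjusted p-values of up to 0.112, 0.232 and 0.0812, and the glutamine call of ATG12 up to 0.122. ATG7 shares 1596 exon bases with VGLL4 on the other strand.

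The ATG4 proteases trim ATG8 proteins before conjugation and release them from membranes afterwards. ATG4B, the most active of them on LC3, had 8.97 and 8.91 FPKM in the controls, 6.66 and 6.56 in glucose deprivation and 8.61 in glutamine deprivation. It fell by 0.38 ± 0.04 (adjusted p = 0.000239) on the log2 scale in glucose deprivation and had -0.05 ± 0.05 (adjusted p = 0.478) in glutamine deprivation, with the glucose-deprived libraries lowest. Under scaling to the total the glucose call of ATG4B was lost (adjusted p = 0.137). ATG4A, which prefers GABARAP proteins, had 7.54 and 7.69 FPKM in the controls, 6.41 and 5.89 in glucose deprivation and 5.57 in glutamine deprivation. ATG4C had 17.4 and 17.0 FPKM in the controls, 15.7 and 14.2 in glucose deprivation and 12.9 in glutamine deprivation.

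For ATG4A and ATG4C every deprived library lay below both controls and the glutamine-deprived library lay lowest. ATG4A fell by 0.27 ± 0.06 (adjusted p = 0.00738) and 0.39 ± 0.08 (adjusted p = 0.00369) on the log2 scale, and ATG4C by 0.19 ± 0.06 (adjusted p = 0.0217) and 0.38 ± 0.07 (adjusted p = 0.00256). Their glucose calls were lost without control replicate 1 (adjusted p = 0.0592 and 0.14) or control replicate 2 (adjusted p = 0.0714 and 0.102), and that of ATG4C also without glucose deprivation replicate 2 (adjusted p = 0.0922). Scaling to the total ended the calls of ATG4A and ATG4C in both deprivations. The glucose call of ATG4C was also lost without scaling, under upper-quartile scaling and with the GC and length trend removed. With that trend removed the glutamine changes were -0.17 (adjusted p = 0.0772) for ATG4A and -0.11 (adjusted p = 0.178) for ATG4C. ATG4D, the fourth protease, had log2 fold changes of 0.18 (adjusted p = 0.105) and -0.09 (adjusted p = 0.516), with 10.6 FPKM in one glucose-deprived library and 12.8 in the other.

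Transcripts of the ATG8 family, whose proteins coat the autophagosome membrane, summed to 72.2 and 67.2 FPKM in the controls, 60.9 and 65.4 in glucose deprivation and 59.8 in glutamine deprivation. GABARAP was the most abundant in every library, with 57.3% and 55.5% of that sum in the controls, 59.0% and 61.6% in glucose deprivation and 52.5% in glutamine deprivation. MAP1LC3B, the gene of the usual autophagosome marker LC3B, held 13.8% and 14.5%, then 12.4% and 11.2%, then 17.4%. Its level was 9.99 and 9.76 FPKM in the controls, 7.56 and 7.35 in glucose deprivation and 10.4 in glutamine deprivation. MAP1LC3B fell by 0.36 ± 0.05 (adjusted p = 0.000394) on the log2 scale in glucose deprivation and had 0.07 ± 0.06 (adjusted p = 0.318) in glutamine deprivation. Its glucose call was lost under scaling to the total (adjusted p = 0.171).

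MAP1LC3B has a near-identical copy, MAP1LC3B2, listed at 0.122 and 0.120 FPKM in the controls, 0.0696 and 0.0908 in glucose deprivation and 0.305 in glutamine deprivation, and reads may be split between them. GABARAPL2, also called GATE-16, fell by 0.27 (adjusted p = 0.00246) on the log2 scale in glucose deprivation, a call lost under scaling to the total (adjusted p = 0.4). In glutamine deprivation GABARAPL2 was lower by -0.18 (adjusted p = 0.0436), but it had 0.13 (adjusted p = 0.602) when libraries were scaled to the total and 0.06 (adjusted p = 0.486) with the GC and length trend removed. GABARAP had -0.05 (adjusted p = 0.603) in glucose deprivation and was lower by -0.32 (adjusted p = 0.0159) in glutamine deprivation, a difference that scaling to the total turned to 3.82e-05 (adjusted p = 1). Without 1 control the adjusted p of these glutamine calls reached 0.157 for GABARAPL2 and 0.116 for GABARAP. GABARAPL1 passed in neither deprivation (-0.03 and -0.16). MAP1LC3A was listed at 0 in both controls, at 0.0465 and 0.0759 FPKM in glucose deprivation and at 0.0464 in glutamine deprivation.

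**Figure D3:**
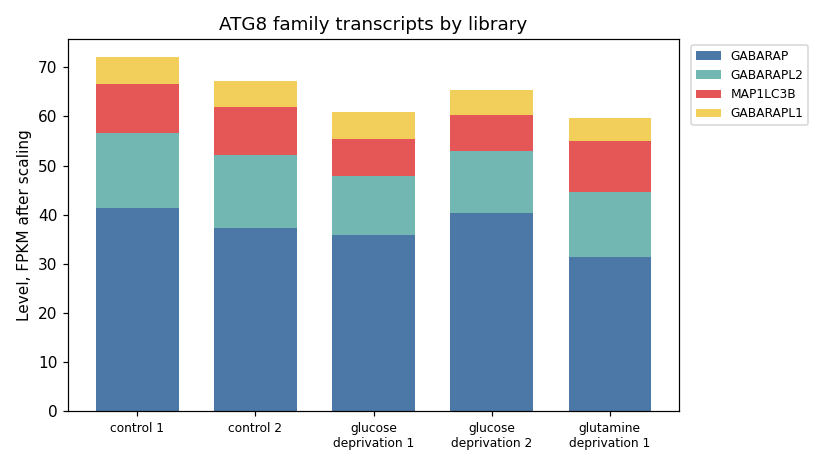
Stacked bars of the FPKM after scaling of GABARAP, GABARAPL2, MAP1LC3B and GABARAPL1 in each of the 5 libraries, on an axis from 0; MAP1LC3A is too low to draw. GABARAP is the largest part of every bar, and the MAP1LC3B part is smallest in the glucose-deprived and largest in the glutamine-deprived library.

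Of the 5 cargo receptors, 1 was higher and 1 lower in glucose deprivation (26.5% and 28.2% of all genes tested), and 0 higher and 2 lower in glutamine deprivation (24.7% and 26.4%), where the count higher at an unadjusted p under 0.05 in limma was also 0. SQSTM1, which encodes p62 and carries ubiquitinated cargo to LC3, had 19.5 and 19.1 FPKM in the controls, 15.1 and 16.8 in glucose deprivation and 15.4 in glutamine deprivation. The 3 deprived libraries of SQSTM1 lay below both controls. SQSTM1 fell by 0.26 (adjusted p = 0.00477) on the log2 scale in glucose deprivation, a call lost without control replicate 1 (adjusted p = 0.0719) or 2 (adjusted p = 0.0563). In glutamine deprivation SQSTM1 was lower by -0.31 (adjusted p = 0.00658), but when libraries were scaled to the total it had 0.000593 (adjusted p = 0.999), and without a control its adjusted p rose to 0.0689. It shares 1582 exon bases with MRNIP on the other strand. CALCOCO2, the gene of the mitophagy and xenophagy receptor NDP52, was higher by 0.24 (adjusted p = 0.00171) in glucose deprivation and had -0.01 (adjusted p = 0.828) in glutamine deprivation. Under scaling to the total the glucose call of CALCOCO2 was lost (adjusted p = 0.068).

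TAX1BP1, a ubiquitin-binding receptor related to NDP52, had -0.07 (adjusted p = 0.2) in glucose deprivation and was lower by -0.29 (adjusted p = 0.00206) in glutamine deprivation, but 0.02 (adjusted p = 0.96) there under scaling to the total. NBR1, which cooperates with p62, had 0.05 and -0.01, and the mitophagy receptor OPTN had 0.06 and -0.18, none past the threshold. CALCOCO2 and SQSTM1 are thus the receptors called in glucose deprivation, in opposite directions, and TAX1BP1 and SQSTM1 those called in glutamine deprivation.

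Of the 3 genes of the last step, STX17 and EPG5 rose in glucose deprivation. STX17, the SNARE protein gene of the closed autophagosome, had 4.68 and 5.05 FPKM in the controls, 7.92 and 7.33 in glucose deprivation and 5.10 in glutamine deprivation. The glucose-deprived libraries stood apart, at 1.57 times the control level, with a log2 fold change of 0.56 ± 0.06 (adjusted p = 0.000197) and 0.06 ± 0.07 (adjusted p = 0.543) in glutamine deprivation. EPG5, a tether between autophagosome and lysosome, had 1.97 and 2.06 FPKM in the controls, 3.42 and 3.37 in glucose deprivation and 3.21 in glutamine deprivation. All 3 deprived libraries of EPG5 lay above both controls, with log2 fold changes of 0.54 ± 0.05 (adjusted p = 7.12e-05) and 0.48 ± 0.06 (adjusted p = 0.000375), and both calls held in every alternative. TECPR1, a second tether that binds the ATG12-ATG5 conjugate, passed in neither (0.12 and 0.19).

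The direct comparison asked whether the 2 deprivations left different autophagy transcripts, with dialyzed serum on both sides. ATG9A, ULK1 and MAP1LC3B were higher without glutamine than without glucose, and ATG14, STX17 and PIK3C3 were lower, all by at least 1.3-fold on the log2(FPKM + 1) scale. Of 40 tested members 18 passed, against 44.4% of all genes tested, with 5 higher (22.4% of all genes) and 13 lower (22.1%). With the 1.3-fold minimum on that scale 3 were higher and 3 lower, beside 14.0% and 11.0% of all genes, or 25.1% in either direction. The members' median was -0.13 against 0.01 over all genes. Of all genes called, 50.4% were higher, and this share was 85.8% under scaling to the total and 68.3% without scaling. Scaling to the total gave 4 members higher and 0 lower, beside 3674 and 607 of 16938 genes. Without scaling 6 members were higher and 4 lower, beside 5068 and 2354 of 16752 genes. At an unadjusted p under 0.05 in limma, scaling to the total gave 5 members higher and 1 lower.

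ATG9A had the widest separation, 16.8 FPKM without glutamine against 9.64 and 9.82 without glucose, a log2 fold change of 0.73 ± 0.06 (adjusted p = 0.000168). ULK1 was higher by 0.49 ± 0.07 (adjusted p = 0.00122) and MAP1LC3B by 0.44 ± 0.06 (adjusted p = 0.000769). These 3 calls held in every alternative, and no other call of the direct comparison did. ATG4B was higher by 0.34 ± 0.05 (adjusted p = 0.00191) and ATG2A by 0.24 ± 0.06 (adjusted p = 0.0183). In the other direction stood ATG14 with -0.54 ± 0.09 (adjusted p = 0.00238), STX17 with -0.50 ± 0.07 (adjusted p = 0.00143) and PIK3C3 with -0.47 ± 0.06 (adjusted p = 0.00054).

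By role, the direct comparison had 4 of 6 conjugation enzymes (ATG3, ATG7, ATG12 and ATG16L1) and 3 of 5 cargo receptors (OPTN, CALCOCO2 and TAX1BP1) lower, where 22.1% of all genes were, and 0 of either higher, where 22.4% were, also at an unadjusted p under 0.05 in limma. Without scaling, and when libraries were scaled to the total, 0 genes of these 2 groups were called lower. Over all genes, 2354 of 16752 were lower without scaling and only 607 of 16938 with the total. At an unadjusted p under 0.05 in limma, 1 gene of each group was lower without scaling and 0 with the total. Scaling to the total turned ATG3 from -0.18 (adjusted p = 0.0255) to 0.01 (adjusted p = 0.976). Of the 7 genes of the PI3-kinase complexes 2 were lower. Of the ULK1 complex 1 was higher and 1, RB1CC1, lower by -0.26 (adjusted p = 0.00329). Leaving out 1 library ended 6 of the 18 calls, those of ATG2A, ATG3, ATG7, ATG16L1, GABARAP and OPTN, with adjusted p-values of up to 0.0668, 0.0778, 0.0734, 0.0991, 0.137 and 0.116.

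**Figure D4:**
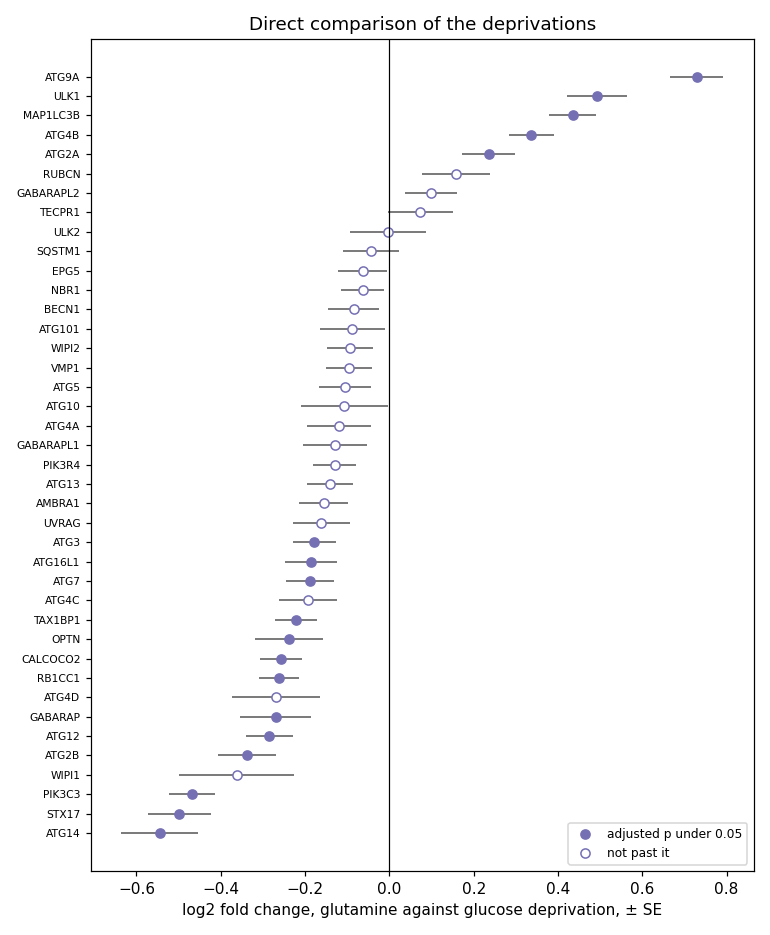
Log2 fold change of each tested autophagy gene in the glutamine-deprived library against the 2 glucose-deprived libraries, sorted, with bars for the standard error and filled points for an adjusted p under 0.05. ATG9A (0.73), ULK1 (0.49) and MAP1LC3B (0.44) lie at the top and ATG14 (-0.54), STX17 (-0.50) and PIK3C3 (-0.47) at the bottom.

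GC content moved with the direct comparison. The 5 members higher without glutamine had transcripts of 50.4% to 64.2% GC (median 60.9%), and the 13 lower had 37.5% to 50.8% (median 44.2%). Across the 40 members, which share the same libraries, GC content and the log2 fold change had a Pearson correlation of 0.542, and across 16271 genes with a GC value it was 0.224. Against control the members' correlation was 0.42 in glutamine deprivation and -0.03 in glucose deprivation, beside 0.17 and -0.03 over all genes. For the log of exon length the members' correlation was 0.44 in glutamine and 0.428 in glucose deprivation, beside -0.131 and -0.128 over all genes. In the direct comparison it was 0.0144, beside -0.0148. The part of length in the members' changes was not tested. After removal of the trend on GC content and length, which was added after seeing the data, ULK1 was still higher by 0.24 (adjusted p = 0.0167), less than its value above, ATG9A by 0.61 (adjusted p = 3.02e-05) and MAP1LC3B by 0.37 (adjusted p = 0.000436). ATG4B then had 0.15 (adjusted p = 0.0617) and ATG2A -0.02 (adjusted p = 0.786), and 4 members were higher and 18 lower. Of all 16598 genes, 3439 were higher and 4154 lower in that setting.

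**Figure D5:**
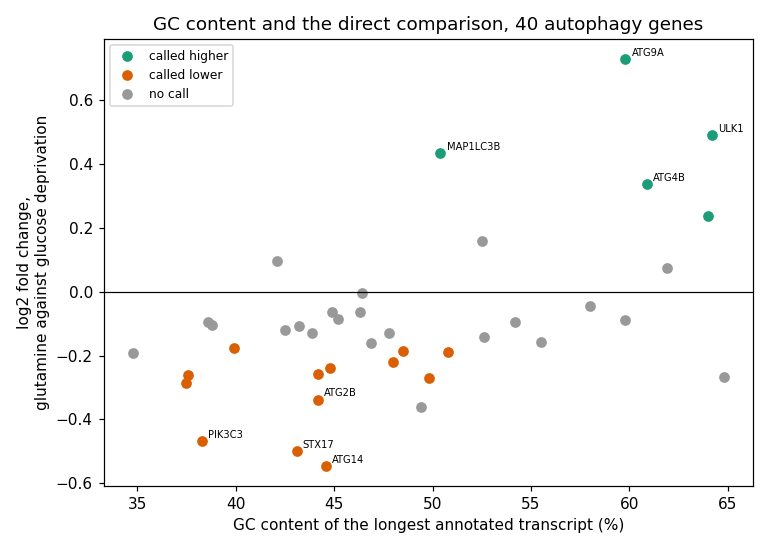
GC content of the longest annotated transcript (horizontal, %) against the log2 fold change of the glutamine-deprived library over the glucose-deprived libraries (vertical) for the 40 tested autophagy genes, coloured by call. The members called higher lie at 50.4% GC and above and those called lower at 50.8% and below.

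Upstream of ULK1, the subunits of the nutrient kinases changed in part. Of 16 genes of the mTORC1 and AMPK branches, 6 were higher and 2 lower in glucose deprivation and 3 higher and 4 lower in glutamine deprivation, against 26.5% and 28.2% and against 24.7% and 26.4% of all genes tested. Without scaling 9 were higher and 2 lower in glutamine deprivation, beside 5946 and 2863 of all 16752 genes then tested. PRKAG1, a nucleotide-binding subunit of AMPK, had 12.3 and 12.6 FPKM in the controls, 17.1 and 17.4 in glucose deprivation and 9.83 in glutamine deprivation, with log2 fold changes of 0.43 (adjusted p = 0.00014) and -0.32 (adjusted p = 0.00194). PRKAA1, a catalytic subunit of AMPK, had 0.27 (adjusted p = 0.00561) and -0.30 (adjusted p = 0.00993). RPTOR, which encodes the mTORC1 subunit raptor, had -0.13 (adjusted p = 0.0744) and 0.52 (adjusted p = 0.00049). TSC2, the brake on mTORC1, rose by 0.47 (adjusted p = 0.000257) in glutamine deprivation, but had 0.02 (adjusted p = 0.711) with the GC and length trend removed, and RHEB, the activator it restrains, fell by 0.47 (adjusted p = 0.000234) on the log2 scale.

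Of 9 tested transcription factors of autophagy genes, 5 were higher and 0 lower in glucose deprivation, and 6 were higher and 0 lower in glutamine deprivation. Of all genes tested, 26.5% were higher and 28.2% lower in the former and 24.7% and 26.4% in the latter, and in limma the counts at an unadjusted p under 0.05 were the same. DDIT3, the gene of the stress factor CHOP, had 5.30 and 5.20 FPKM in the controls, 34.1 and 33.5 in glucose deprivation and 15.3 in glutamine deprivation, with log2 fold changes of 2.48 (adjusted p = 3.73e-07) and 1.38 (adjusted p = 2.80e-05). FOXO3 had 0.54 (adjusted p = 3.92e-05) and 0.41 (adjusted p = 0.00037). The next largest called changes were those of E2F1 with 0.36 (adjusted p = 0.000815) and FOXO1 with 0.35 (adjusted p = 0.000723) in glucose deprivation, and of ZKSCAN3 with 0.38 (adjusted p = 0.00377) and NFE2L2 with 0.24 (adjusted p = 0.00876) in glutamine deprivation. TFEB, named here outside the rule of size and a master regulator of lysosomal genes, did not reach the level needed for a test, with 0.925 and 0.581 FPKM in the controls, 0.498 and 0.655 in glucose deprivation and 0.974 in glutamine deprivation.

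Of the 12 members that ATF4 or CHOP are known to bind in the amino acid response, 2 were higher and 7 lower in glucose deprivation (26.5% and 28.2% of all genes tested), and 0 were higher and 8 lower in glutamine deprivation (24.7% and 26.4%). When libraries were scaled to the total, 0 were called in either direction in both deprivations. Of all 16938 genes then tested, 3735 were higher and 1743 lower without glucose, and 5673 and 534 without glutamine. At an unadjusted p under 0.05 in limma, that scaling gave 2 of the 12 members higher and 1 lower without glucose. Without glutamine it gave 1 higher and 0 lower. Medians of the 12 members were -0.23 and -0.25, against 0.02 and 0.04 over all genes. Under scaling to the total these medians were -0.12 and 0.05, against 0.111 and 0.30. ATG7 and ATG10 were the 2 higher ones, and ATG3, BECN1, ATG5, MAP1LC3B, GABARAPL2, SQSTM1 and ATG16L1 the 7 lower ones. With trimmed-mean scaling, the count higher in glutamine deprivation at an unadjusted p under 0.05 in limma was also 0. Of the 6 tested genes known as TFEB targets 3 were higher and 3 lower in glucose deprivation, and 0 higher and 2 lower in glutamine deprivation (24.7% and 26.4% of all genes), where 1 was higher at an unadjusted p under 0.05 in limma.

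Other genes of the pathway also moved in both directions. Of 11 tested further core genes, 3 were higher and 4 lower in glucose deprivation (26.5% and 28.2% of all genes tested), and 3 were higher and 3 lower in glutamine deprivation (24.7% and 26.4%). WDR45, a PI3P-binding relative of WIPI1, had 5.22 and 5.50 FPKM in the controls, 9.66 and 9.44 in glucose deprivation and 5.69 in glutamine deprivation, a log2 fold change of 0.73 (adjusted p = 2.49e-05) that was 0.07 (adjusted p = 0.353) without glutamine. ATG16L2, a relative of ATG16L1, was higher by 0.68 (adjusted p = 0.000201) and 0.40 (adjusted p = 0.00842), the latter 0.13 (adjusted p = 0.26) with the GC and length trend removed. TP53INP2, a nuclear cofactor that brings LC3 to the cytoplasm, was higher in glutamine deprivation by 0.97 (adjusted p = 0.000361), with 0.618 and 0.670 FPKM in the controls and 2.21 without glutamine. NRBF2, a subunit of the PI3-kinase complex, fell by 0.29 (adjusted p = 0.00308) and 0.40 (adjusted p = 0.00205) on the log2 scale, and WDR45B, a relative of WDR45, by 0.27 (adjusted p = 0.00146) and 0.40 (adjusted p = 0.000683).

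Of 20 organelle and other selective receptors, 5 were higher and 7 lower in glucose deprivation (26.5% and 28.2% of all genes tested), and 2 were higher and 10 lower in glutamine deprivation (24.7% and 26.4%). CALCOCO1, a receptor related to CALCOCO2, had the largest called change in glucose deprivation, 0.70 (adjusted p = 3.91e-05), followed by the endoplasmic reticulum receptor RETREG1 with -0.63 (adjusted p = 0.000669). In glutamine deprivation SEC62, a receptor for recovery of the endoplasmic reticulum, fell by 0.64 (adjusted p = 6.49e-05) on the log2 scale, TBK1, the kinase of several receptors, by 0.62 (adjusted p = 0.000187), the mitophagy receptor BNIP3 by 0.56 (adjusted p = 0.000169) and the ferritin receptor NCOA4 by 0.46 (adjusted p = 0.000269). In the direct comparison 3 of the 20 were higher and 10 lower, against 22.4% and 22.1% of all genes tested. There TEX264, a receptor of the endoplasmic reticulum, had -0.63 (adjusted p = 0.000564) and RETREG1 0.63 (adjusted p = 0.00279).

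Of 15 further genes of fusion, 3 were higher and 6 lower in glucose deprivation (26.5% and 28.2% of all genes tested), and 2 were higher and 8 lower in glutamine deprivation (24.7% and 26.4%). VAMP8, the lysosomal SNARE partner of STX17, had 17.9 and 17.8 FPKM in the controls, 9.28 and 9.67 in glucose deprivation and 11.8 in glutamine deprivation. It fell by 0.85 (adjusted p = 3.84e-05) and 0.56 (adjusted p = 0.000772) on the log2 scale, while STX17 rose in glucose deprivation. In glucose deprivation RILP, an effector of the late endosomal GTPase RAB7, fell by 0.51 (adjusted p = 0.0075) and YKT6, an autophagosomal SNARE, by 0.40 (adjusted p = 0.000214) on the log2 scale. In glutamine deprivation the HOPS subunits VPS18 and VPS33A fell by 0.55 (adjusted p = 0.00139) and 0.47 (adjusted p = 0.000278), and the adaptor PLEKHM1 was higher by 0.52 (adjusted p = 0.001). VPS11, a core subunit of the HOPS tether, was higher in glucose deprivation by 0.77 (adjusted p = 1.77e-05), with 8.64 and 8.81 FPKM against 4.64 and 4.72 in the controls and 4.31 without glutamine. In the direct comparison VPS11 was lower by -0.87 (adjusted p = 7.59e-05), and 3 of the 15 were higher and 5 lower, against 22.4% and 22.1% of all genes tested. Under scaling to the total the median of all genes was 0.30 in glutamine deprivation, and 534 of 16938 genes were called lower. There 0 genes of these 3 lists and of the nutrient kinases were called lower. At an unadjusted p under 0.05 in limma 1 was, a selective receptor. In glucose deprivation that scaling ended the lower calls of NRBF2 (adjusted p = 0.304), WDR45B (adjusted p = 0.439) and YKT6 (adjusted p = 0.148).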

How the data were processed

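Total RNA depleted of ribosomal RNA was sequenced as paired reads, per the labels' protocols. Reads were processed with HISAT2 2.0.5 and StringTie against hg38, per the submitters' processing notes. Not given in the sources used here are the gene models, the release of StringTie and the strandedness. Values as deposited were taken to be FPKM, which the authors had normalized to transcript length and depth. No header names the unit. At a depth fitted to each library, 95.1% to 95.7% of low single-exon values came out as whole reads within 0.05. That shows values proportional to reads over length. It cannot single out FPKM, because another constant per library would be taken up by the fitted depth. The inferred depths and reads thus rest on the unit being FPKM. 1 value column of the glutamine data is headed as glucose deprivation replicate 2 and was not used, which left 5 of 6 labelled libraries.

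FPKM were divided by trimmed-mean factors (30% of ratios and 5% of abundances trimmed, 0.960 to 1.08). Genes that reached 1 FPKM in any library entered a limma fit (version 3.58.1, R 4.3.3) of log2(FPKM + 1), with 1 coefficient per group, 2 residual degrees of freedom and a variance trend over inferred reads (mean FPKM times GENCODE 29 exon length, an upper estimate where isoforms differ). That scale understates the change of low genes. Tests were two-sided, with Benjamini-Hochberg adjustment over 16598 genes and a threshold of 0.05. Exon lengths, GC content and coordinates came from GENCODE 29 (GRCh38). Exons of 22 members overlap a gene on the other strand and those of 4 a gene on the same strand.

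The members and lists were chosen with earlier results of these data known. Members that passed in at least 1 comparison with a change of at least 1.3-fold there, on the log2(FPKM + 1) scale, are given with every library's value, and up to 4 genes per comparison were named from each other list by size of change; a gene so named may be given in both deprivations. 1 gene of the transcription factor list is not reported here. The correlation of deviations from the group means between control replicate 1 and glucose deprivation replicate 1 was -0.0219, the labels give no shared batch, and libraries were not paired. Alternatives were other pseudocounts, filters, scalings, variance trends, a replicate block and leaving out each library, and, after seeing the data, removal of a GC and length trend. Comparisons with control share the control libraries.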

Additional observations from a re-analysis of the deposited data

Results flagged for a closer look

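The following 18 autophagy genes differed between the deprivations in the direct test of the glutamine-deprived library against the glucose-deprived libraries (limma, adjusted p under 0.05; 44.4% of all genes tested also passed), and each value is the log2 fold change without glutamine less that without glucose. Higher without glutamine were ATG9A (0.73), the kinase gene ULK1 (0.49), MAP1LC3B (0.44), the protease gene ATG4B (0.34) and ATG2A (0.24). Lower without glutamine were ATG14 (-0.54), STX17 (-0.50), PIK3C3 (-0.47), ATG2B (-0.34), ATG12 (-0.28), GABARAP (-0.27), RB1CC1 (-0.26), CALCOCO2 (-0.26), OPTN (-0.24), TAX1BP1 (-0.22), ATG7 (-0.19), ATG16L1 (-0.19) and ATG3 (-0.18). ATG9A and ATG14 were called in opposite directions by the comparisons of the 2 deprivations with their shared controls. For both genes the glutamine call was lost when any 1 of the other libraries was left out. The glutamine side of every one of these values is 1 library.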

How the results depend on the processing

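Calls that held in every alternative numbered 9 of 29 in glucose deprivation (ULK1, ATG101, PIK3C3, UVRAG, AMBRA1, ATG2B, ATG9A, STX17 and EPG5), 3 of 22 in glutamine deprivation (ULK1, ATG101 and EPG5) and 3 of 18 between the deprivations. FPKM sums were 493129 to 571208 per library. Under scaling to the total, members higher and lower numbered 9 and 2 in glucose deprivation (15 and 14 as reported). The glucose calls of ULK2, ATG13, ATG2A, ATG7, ATG10, ATG16L1 and SQSTM1 were among those lost there. Lower members numbered 1 in glutamine deprivation (16) and 0 between the deprivations (13), where 1 was lower at an unadjusted p under 0.05 in limma. Of all 16938 genes then tested, 3735 were higher and 1743 lower in glucose deprivation (4393 and 4680 of 16598 as reported). Lower genes numbered 534 in glutamine deprivation (4381) and 607 between the deprivations (3660). In glutamine deprivation higher members numbered 12 without scaling, 12 under upper-quartile scaling, 3 without a filter and 3 with the GC and length trend removed (6 as reported). Over all genes the higher calls in these settings, in the same order, were 5946, 5544, 4228 and 3496 (4092 as reported). Lower members numbered 9 without scaling, 10 under upper-quartile scaling and 10 without a filter, beside 2863, 3224 and 3131 of all genes (4381 as reported). Without a filter 34222 genes were tested. Lower members of the direct comparison numbered 4 without scaling, 8 under upper-quartile scaling and 7 without a filter. Beside them stood 2354, 3087 and 2178 of all genes (3660 as reported). The cause was not tested.

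With 1 library left out, members higher and lower ranged over 8 to 15 and 10 to 14 without glucose, over 3 to 6 and 11 to 15 without glutamine, and over 4 to 5 and 8 to 11 between the deprivations. The lowest glucose count of higher members came without control replicate 1, where higher calls over all genes were also fewest among the omissions. In every omission and each comparison, calls over all genes in either direction were fewer than as reported, so lower member counts are not particular to the members. Leaving out a library ended at least once 11 of 29, 9 of 22 and 6 of 18 calls.

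In glutamine deprivation scaling to the total turned RB1CC1 to 0.0833, ATG12 to 0.0934, GABARAP to 3.82e-05, GABARAPL2 to 0.127, SQSTM1 to 0.000593 and TAX1BP1 to 0.0152, and removal of the GC and length trend gave -0.19 for ATG7 and 0.0556 for GABARAPL2. In the direct comparison ATG3 turned to 0.0110 under scaling to the total and ATG2A to -0.0225 with the trend removed.

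With the replicate block, members higher and lower numbered 14 and 14 without glucose, 4 and 14 without glutamine and 5 and 10 between the deprivations. Beside them stood 4273 and 4539, 3557 and 3988, and 3202 and 3137 of all 16598 genes. No member count moved by over 1.5 times, and the replicate numbers pair 2 control with 2 glucose libraries at most. Genes of low level are limited by depth: WIPI1 rests on 65 to 135 reads per library, and MAP1LC3A on at most 4.6.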
